A study of Mus musculus with 12 samples.

Results

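The monocytes of MC38 tumors described here were the 4890 cells that the study's deposited cell table placed in its cluster 4, out of 93126 cells from 48 tumors. They made up 5.25% of all cells and 7.18% of the cells in the 10 clusters of monocytes and macrophages (clusters 2, 4, 5, 9, 15, 17, 19, 21, 26 and 27). Each tumor gave between 11 and 351 of these cells, and each of the 12 pooled libraries between 226 and 729.

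The series asked how the genetic background of the host shapes the tumor immune microenvironment in the CCF1 MC38 system, before and early after blockade of the checkpoint receptor PD-1 (aPD1). MC38, a colon carcinoma line from C57BL/6J (B6), was injected under the skin of female mice of 8 to 12 weeks. At a tumor volume of 75 to 110 mm3 each mouse received 1 dose of 200 µg of aPD1 antibody (clone 29F.1A12) or of isotype control antibody (clone 2A3), and the tumor was collected 48 h later. Dissociated tumors were sorted to about 90% CD45+ and 10% CD45- cells, and 4 hashtagged specimens were loaded per library. Hosts were B6 mice and F1 hybrids of B6 with the Collaborative Cross (CC) strains CC001, CC002, CC007, CC036, CC075, CC079 and CC080, so that every host carried at least 1 B6 genome. As the study classed the strains, the F1 hosts of CC001, CC002 and CC075 responded to aPD1, those of CC036, CC079 and CC080 did not, and B6 and CC007 entered no class in the comparisons given here. A tumor in the sense used here was 1 hashtagged specimen of 1 pool, and the response class is a property of the host strain, measured in other animals. Isotype and aPD1 tumors carried different hashtags, so that treatment and hashtag cannot be told apart.

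Monocytes are made in the bone marrow and circulate in blood in 2 main forms in the mouse. Classical monocytes carry Ly6C and the chemokine receptor CCR2, enter inflamed tissue and tumors, and can become macrophages there. Non-classical monocytes carry little Ly6C, patrol the inside of vessels and depend on the transcription factor NR4A1.

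A median of 2483.5 unique molecular identifiers (UMIs, each marking 1 captured transcript) and 1163.5 genes was counted per cell, against a median of 3333.5 UMIs over all cells. Summed per tumor, the cluster 4 cells held 21304 to 861936 UMIs, and levels are given as CPM, the count of a gene scaled to a fixed library total of 1e6 UMIs. The 4 tumors with fewer than 20 cells in the cluster were left out of the gene comparisons: an isotype tumor each of CC001, CC002 and B6 and an aPD1 tumor of CC007. Of the 87940 distinct barcodes, 4990 occurred in more than 1 library, and 16 belonged to cluster 4 cells in more than 1 library.

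The 6 genes used to describe the cluster were all far above the rest of the series. These values describe how the cells were grouped, and carry no test. Ace, the angiotensin-converting enzyme (chr11:105967945-105989964, plus strand, GRCm38), was at 105.4 CPM in cluster 4 and 1.16 CPM in all other cells. Adgre4, an adhesion G protein-coupled receptor of myeloid cells (chr17:55749984-55853662, plus strand), was at 114.2 against 3.27 CPM. Of the other 4, Chil3, Hp and Vcan are usual marks of classical monocytes. Chil3, a chitinase-like secreted protein, was at 630 against 53.2 CPM, and Hp, haptoglobin, which binds free hemoglobin, at 219 against 11.8 CPM. Ifitm6, an interferon-induced membrane protein, was at 320 against 14.5 CPM, and Vcan, the proteoglycan versican, at 238 against 24.0 CPM. For 5 of the 6 genes cluster 4 had the highest level of the 27 clusters, and for Hp it came after cluster 16. T cells of cluster 3, with a median of 2823 UMIs, served as a measure of free RNA. A UMI of Ace was found in 17.7% of cluster 4 cells and in 0% of these T cells, one of Chil3 in 43.3% against 0.107%, one of Hp in 32.8% against 0.0356% and one of Vcan in 28.8% against 0.356%.

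**Figure D1:**
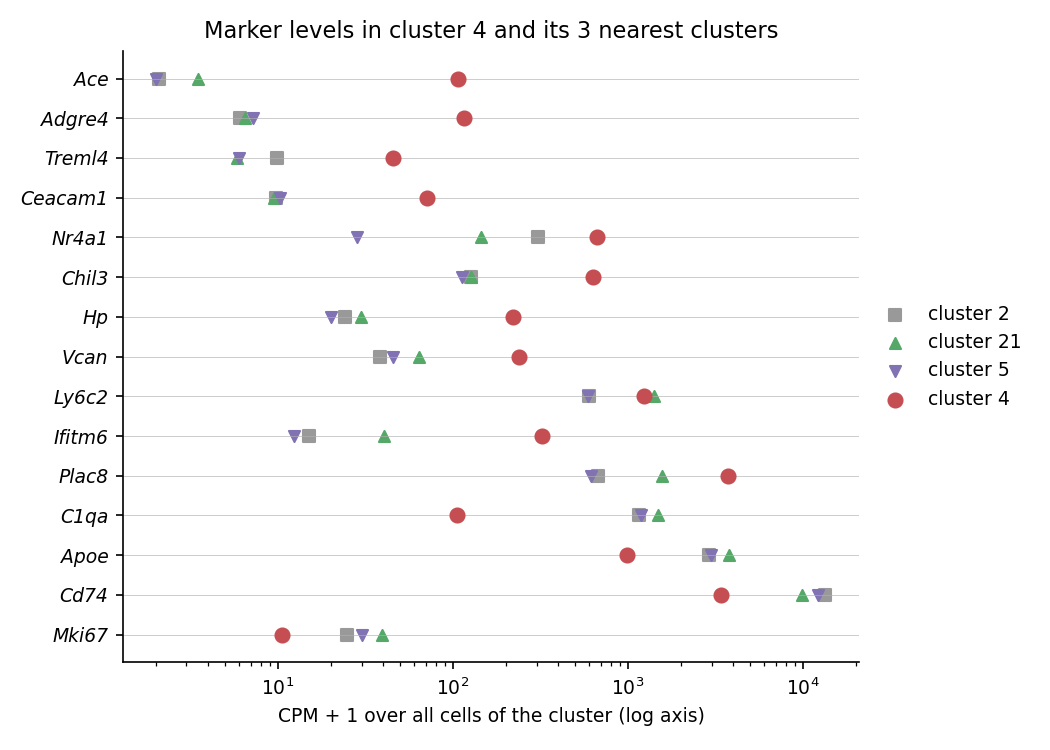
Level of 15 genes (log axis, CPM + 1) in cluster 4 and in the 3 clusters most like it, 2, 21 and 5, with 1 point per gene and cluster over all their cells. Ace at 105.4 CPM and Chil3 at 630 CPM are highest in cluster 4, Ly6c2 is higher in cluster 21 (1400 against 1239 CPM), and C1qa at 104 CPM and Apoe are lowest in cluster 4.

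Among the 20 genes of largest ratio over all other cells, Ace led with a ratio of 49.3 (1 CPM added to both levels), followed by Adgre4 at 26.98 and Dmkn, dermokine, at 23.6. Plac8, a small protein of myeloid cells, had a ratio of 8.75 at a level of 3704 CPM. Osm, the cytokine oncostatin M, stood at 396 CPM with a ratio of 6.27, Gsr, glutathione reductase, at 323 CPM with 6.26, and Hes1, a repressor in the Notch pathway, at 85.4 CPM with 6.38. The 20th and 21st genes differed little, at 5.81 and 5.77.

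Genes of both monocyte programs were mostly higher when the cluster was set beside the 63169 cells of the other 9 monocyte and macrophage clusters. Of 14 genes of classical monocytes 9 were more than 2-fold higher and none more than 2-fold lower, with a median log2 ratio of 1.86. The list holds 3 of the genes that name the cluster, Chil3, Hp and Vcan, and of the other 11 genes 6 were more than 2-fold higher and none lower (median 1.36). Ly6c2, which encodes Ly6C, was at 1239 against 394 CPM, Thbs1, thrombospondin 1, at 784 against 185 CPM, and Mgst1, a microsomal glutathione transferase, at 257 against 57.1 CPM. The pooled value hides a spread between clusters, as Ly6c2 was at 1400 CPM in cluster 21, above cluster 4. Ccr2 was at 646 against 415 CPM, while Fn1, fibronectin, was at 974 against 1004 CPM. Of 14 genes of non-classical monocytes 10 were more than 2-fold higher and 1 lower, with a median of 2.20. Without Ace and Adgre4, which also name the cluster, these were 8 and 1 of 12 (median 1.84). Nr4a1 was at 662 against 132 CPM, Treml4, a receptor of patrolling monocytes and some dendritic cells, at 44.6 against 6.63 CPM, and Pglyrp1, a peptidoglycan recognition protein, at 77.8 against 1.58 CPM. Cx3cr1, the fractalkine receptor and a usual mark of non-classical monocytes, was the exception at 117 against 303 CPM. Over all 8143 genes compared, 403 were more than 2-fold higher and 762 lower, with a median log2 ratio of -0.0989.

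Genes of mature macrophages were low. Of 14, 11 were more than 2-fold lower and none higher, with a median log2 ratio of -2.83. C1qa and C1qb, 2 chains of the complement component C1q, were at 104 against 1922 CPM and 181 against 2534 CPM. Spp1, osteopontin, was at 176 against 1302 CPM, Arg1, arginase 1, at 99.0 against 740 CPM, and Apoe, apolipoprotein E, at 979 against 4424 CPM. The class II genes of antigen presentation were lower as well, 6 of 10 by more than 2-fold, with H2-Aa at 1032 against 4153 CPM and the invariant chain Cd74 at 3400 against 10201 CPM. Of 12 cell cycle genes 11 were more than 2-fold lower, with Mki67 at 9.53 against 87.8 CPM. Of 15 genes of hypoxia and glycolysis 7 were more than 2-fold lower and none higher.

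Il1b, Irf1, Cxcr4 and Tgfb1 were higher than in the pooled other macrophage clusters, but the lists that hold them were mixed. Of 13 inflammatory cytokine genes 3 were more than 2-fold higher and 0 lower, with a median log2 ratio of -0.111. For 22 interferon gamma response genes these counts were 5 and 1. They were 1 and 4 for 12 chemokines and receptors of monocytes, and 2 and 2 for 12 suppressive mediators. Il1b, interleukin 1 beta, was at 2465 against 1039 CPM, but cluster 2 had it at 2440 CPM and cluster 16 had more than cluster 4. Irf1, an interferon-induced transcription factor, was at 434 against 141 CPM, and Cxcr4, a chemokine receptor that holds monocytes in the marrow, at 458 against 158 CPM. Tgfb1, transforming growth factor beta 1, was at 811 against 332 CPM and was highest in cluster 4 of all clusters. Of 16 immediate early genes 7 were more than 2-fold higher and none lower, with Atf3 at 1666 against 687 CPM and Jund at 2153 against 981 CPM. Only 2 of the 16 had their highest level of all clusters in cluster 4. Immediate early genes can also be induced while tissue is dissociated, and the part of that step was not tested. The chemokines Ccl7, Ccl8 and Ccl12 were lower in cluster 4, at 114 against 528 CPM, 11.1 against 130 CPM and 77.0 against 556 CPM.

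Genes of other cells were mostly low, and granulocyte genes were mixed. The 10 granulocyte genes summed to 218 CPM in cluster 4 against 50.9 CPM in the other macrophage clusters, with 4 more than 2-fold higher and 1 lower. S100a8 and S100a9, calcium-binding proteins of neutrophils and some monocytes, were at 98.7 against 11.2 CPM and 36.5 against 1.60 CPM, Csf3r, the G-CSF receptor, at 74.8 against 29.0 CPM and G0s2 at 6.33 against 0.470 CPM. The levels of the first 2 rest on 1 tumor, the CC001 isotype tumor of pool 12, which held 979 of 1356 S100a8 and 443 of 502 S100a9 UMIs of the cluster. Without it, a step added after the data were seen, S100a8 was at 28.4 against 10.3 CPM, S100a9 at 4.44 against 1.56 CPM and the sum of the list at 116 against 50.2 CPM. Retnlg, Camp and Ngp were at 0 CPM and Ly6g at 0.073 CPM. Their part in the results was not tested, apart from the S100a8 values below. The lists of dendritic cells, B cells, T and NK cells, fibroblasts and MC38 cells summed to 57.6, 37.5, 10.0, 3.49 and 1.96 CPM, against 36.2, 59.4, 8.86, 7.06 and 3.87 CPM in the other macrophage clusters. Over 13051 genes the clusters closest to cluster 4 in log2(CPM + 1) were cluster 2 (Pearson r = 0.972), cluster 21 (0.964) and cluster 5 (0.960), all of them of the macrophage set. The correlations are across genes, which are not independent. Levels across the 27 clusters were also correlated, only for genes of at least 50 CPM in cluster 4, which leaves out lower ones such as Treml4. Those that went most with Ace were Dmkn (r = 0.752), Hes1 (0.724), Hp (0.718), Id3 (0.705) and Plcb1 (0.696). With Chil3 they were Gm9733 (0.939), Fpr2 (0.935), Prdx5 (0.911), Thbs1 (0.904) and F10 (0.901). No gene was in both sets, which with 5 genes each says nothing of the 2 programs, and clusters share libraries.

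The label joins Ace and Chil3, and the extent to which genes of both programs were found in the same cells was described next. For this description each of 4562 cells was thinned to 1000 UMIs, and 328 cells with fewer were left out. Of the thinned cells 801 (17.6%) had a UMI of Ace or Adgre4, 2549 (55.9%) one of Vcan or Ly6c2, 262 (5.74%) both and 1474 (32.3%) neither. Without thinning the first shares were 29.7% and 70.5%. Vcan or Ly6c2 was found in 32.7% of the cells with Ace or Adgre4 and in 60.8% of the others. Cells with neither gene pair cannot be placed at this depth.

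Cells with a UMI of Ace or Adgre4 were then compared with the remaining cluster 4 cells within each of the 32 tumors that had at least 10 cells on both sides. Over all 3078 genes whose mean of both sides was at least 50 CPM, a filter chosen after seeing the data, 52.2% were higher in the Ace or Adgre4 cells and 47.8% lower, with a median ratio of 1.01. All 12 other genes of the non-classical list, taken with no filter, were higher, by ratios of 1.40 to 4.63 with a median of 2.55. Gngt2, a G protein gamma subunit, was at 1067 against 359 CPM and higher in 32 of 32 tumors. Pglyrp1 was at 289 against 65.1 CPM, higher in 31 tumors, Spn, which encodes CD43, at 132 against 22.6 CPM, higher in 29, and Nr4a1 at 1041 against 740 CPM, higher in 27. Of the 14 genes of classical monocytes, also with no filter, 13 were lower, with a median ratio of 0.574. Fn1 was at 280 against 928 CPM and lower in 32 of 32 tumors, and Ly6c2 at 574 against 1315 CPM, lower in 30. Ccr2 was at 393 against 637 CPM, lower in 29. The separation was partial. Chil3 was at 391 against 561 CPM, lower in 27 tumors, with a UMI in 22.3% of the Ace or Adgre4 cells and 32.5% of the others, and Hp was at 144 against 199 CPM, lower in 22. Plac8 and Ifitm6 did not separate the cells, with ratios of 1.07 and 1.04.

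Other functions went with this split. Of 7 class II genes 6 were higher in the Ace or Adgre4 cells, with H2-Eb1 at 997 against 434 CPM, higher in 29 of 32 tumors, and Cd74 at 5456 against 2935 CPM, higher in 30. Cd36, a scavenger receptor for lipids, was at 254 against 46.7 CPM, higher in 27 tumors. Of 10 chemokines and chemokine receptors that passed the filter 8 were lower, and Ccl2, the ligand of CCR2, was at 177 against 719 CPM, lower in 32 of 32 tumors. Ccr1, a further chemokine receptor, was lower in 31 tumors. The 8 genes of hypoxia and glycolysis that passed and 8 of 9 suppressive mediators were lower, with median ratios of 0.698 and 0.680. Of the 20 genes of the interferon gamma response that passed 7 were higher and 13 lower, with a median ratio of 0.931. Il1b did not separate the cells, at 2439 against 2534 CPM, with 15 tumors higher and 17 lower. The cells were split by 2 genes that define the cluster, so that the counts of tumors are a description without a test.

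**Figure D2:**
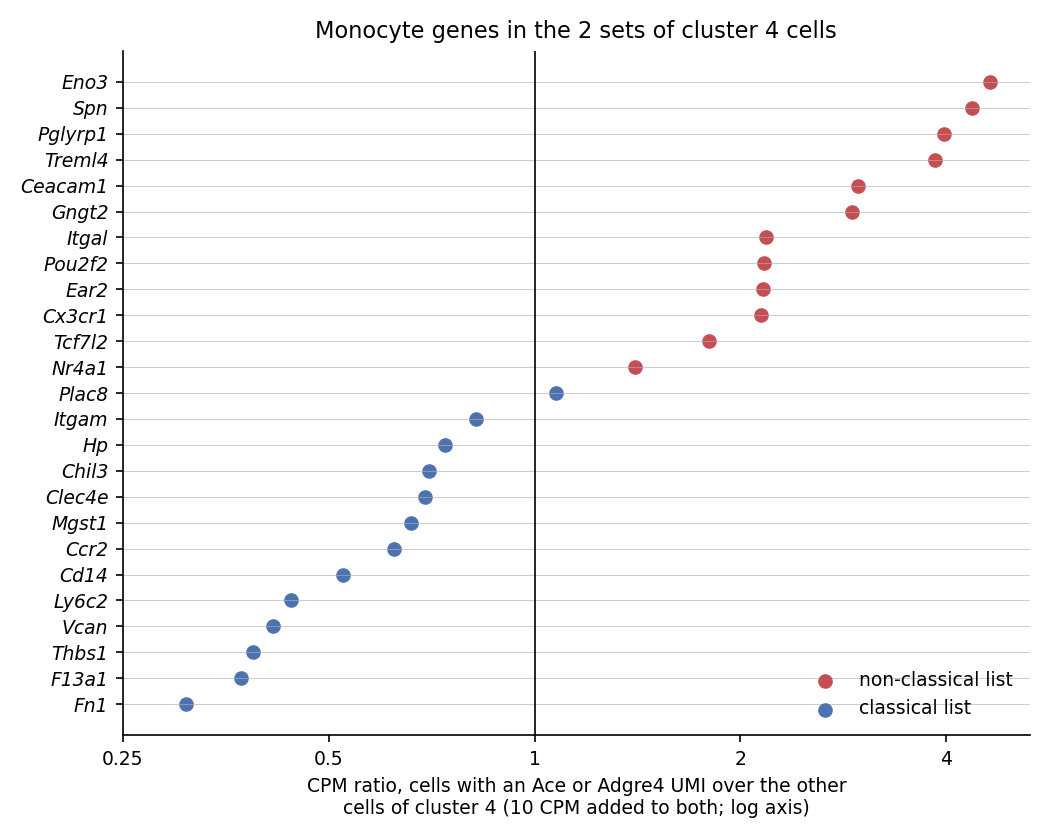
Ratio of mean CPM (log axis, 10 CPM added to both means) of 25 genes in cluster 4 cells with a UMI of Ace or Adgre4 over the other cluster 4 cells, after thinning to 1000 UMIs per cell and over 32 tumors, with classical monocyte genes in blue and non-classical ones in red. Gngt2 at 1067 against 359 CPM lies on the high side and Fn1 at 280 against 928 CPM on the low side.

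The share of cluster 4 cells with Ace or Adgre4 ranged over tumors from 6.67% to 33.75%. By host its mean was lowest in CC079 (12.3% ± 5.06, SD, n = 6) and highest in CC075 (24.3% ± 7.57, SD, n = 6), with ranges that overlapped. In responder hosts it was 17.8% ± 9.49 (SD, n = 8) after isotype and 22.8% ± 7.64 (SD, n = 10) after aPD1. In non-responder hosts it was 18.4% ± 7.02 (SD, n = 9) after isotype and 13.5% ± 3.65 (SD, n = 9) after aPD1. All 4 groups overlapped, and no test was planned for these shares.

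Next, the size of the cluster was compared between groups, as a percentage of all cells of a tumor. In isotype tumors the lowest, median and highest shares were 1.33%, 3.37% and 8.95% in responder hosts (n = 10) and 3.14%, 5.43% and 10.2% in non-responder hosts (n = 9). In aPD1 tumors they were 1.48%, 3.84% and 5.55% in responder hosts and 2.97%, 5.21% and 12.2% in non-responder hosts. Responder hosts thus had the lower median in both arms, and the groups overlapped in both. Mean shares were 4.11% ± 2.55 against 5.84% ± 2.34 (SD) with isotype, a difference of -1.72 percentage points (two-sided exact permutation test of the Wilcoxon rank sum, as in the other tests of shares unless another is named, p = 0.133, adjusted p = 0.311 over 7 tests). With aPD1 they were 3.70% ± 1.24 against 5.69% ± 2.76 (SD), a difference of -1.99 points (exact permutation test, p = 0.0535, adjusted p = 0.187). Within the 8 pools that held both classes the isotype difference was -2.13 points, with the responder tumor lower in 7 of 8 pools (exact sign-flip permutation test, unadjusted p = 0.0391), and the aPD1 difference -2.03 points, lower in 6 of 8 (exact, unadjusted p = 0.0781). The differences in size were therefore not past the threshold after adjustment. Tumors of 1 host share that host, and the classes rest on 3 hosts each.

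No shift of the share with aPD1 was detectable 48 h after the dose. In responder hosts the mean with aPD1 was 0.410 points lower than with isotype (permutation test, p = 0.970) and in non-responder hosts 0.147 points lower (exact permutation test, p = 0.796), and these 2 changes differed by -0.263 points (exact permutation test, p = 0.905). Over all 24 pairs of aPD1 and isotype tumors of 1 host in 1 pool the share was higher with aPD1 in 12 (sign-flip permutation test, unadjusted p = 0.936). The means were 5.49% ± 3.95 and 5.42% ± 2.71 (SD, n = 24 each, permutation test without pairing, p = 0.532). Apart from the sign-flip test, the adjusted p-values of these 4 tests were 0.930 to 0.970. A decrease in monocytes and an increase in other cells cannot be told apart in shares.

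Host means ran from 3.27% in CC001 through 4.05% in CC002, 4.61% in CC075, 5.12% in CC079, 5.42% in CC080, 6.39% in B6 and 6.74% in CC036 to 10.4% in CC007. The last value included the highest tumor of the series, 20.8%, which had 11 cluster 4 cells among 53. The host means spanned 7.15 points, a range that was not itself tested. A permutation test of the Kruskal-Wallis statistic, on 1 mean per pool and host, gave p = 0.0411 and an adjusted p of 0.187. Of the 6 genes that describe the cluster Ace and Hp differed between hosts, beside 17.4% of all genes. With the pool as a block 0 of the 6 did so, beside 3.38% of all genes, so that this count says nothing about them. A difference in size cannot be told apart from one in how cells were grouped.

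**Figure D3:**
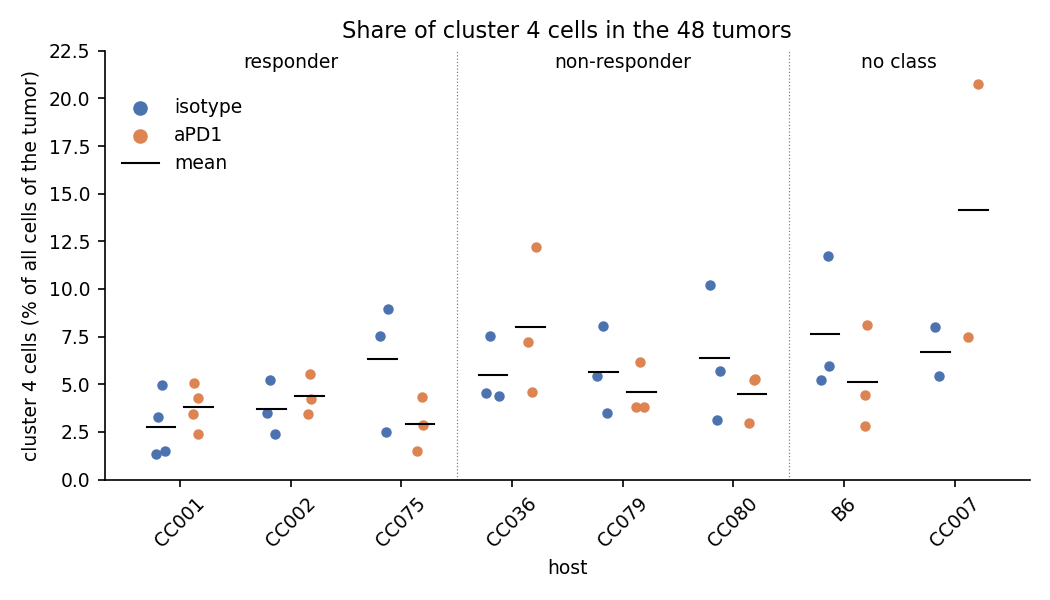
Cluster 4 as a percentage of all cells in each of 48 tumors, by host, with isotype tumors in blue, aPD1 tumors in orange and a line at each mean. Tumors of 1 host spread widely, such as 1.33% to 5.04% in CC001, and the 20.8% of a CC007 tumor is the highest value.

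Gene levels were then compared between responder and non-responder hosts, over both treatments, in 36 tumors. Of 4439 genes tested 21 differed (edgeR quasi-likelihood test, Benjamini-Hochberg adjusted p under 0.05), that is 0.473%, with 16 higher and 5 lower in responder hosts. With the pool as a block 77 genes differed, 20 of them among the 21. When counts were first summed per host, giving 3 hosts against 3, only 2 genes did. The p-values over tumors therefore measure the spread between tumors of these 6 hosts.

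H2-Eb1, the beta chain of the class II molecule I-E, was among the genes higher in responder hosts. Its lowest, median and highest levels were 287, 638 and 1217 CPM in responder isotype tumors and 582, 1281 and 2033 CPM in responder aPD1 tumors. In non-responder hosts they were 101, 415 and 732 CPM with isotype and 145, 302 and 689 CPM with aPD1. The groups overlapped, and 1 host stood highest, CC001 at a mean of 1285 CPM, above CC002 at 875 CPM and CC075 at 841 CPM. The difference was 1.34 ± 0.23 on the log2 scale (SE; edgeR, adjusted p = 0.000388) and was 1.39 with an adjusted p of 0.623 when summed per host (edgeR). It was 1.91 ± 0.32 among aPD1 tumors (edgeR, adjusted p = 0.000611) and 0.78 ± 0.33 among isotype tumors (edgeR, adjusted p = 0.984), and the 2 values differed by 1.13 ± 0.45 (edgeR, adjusted p = 0.99958 over all genes, unadjusted p = 0.0171). In the other macrophage clusters H2-Eb1 had medians of 2911 and 4582 CPM in the responder isotype and aPD1 tumors and 1732 and 1672 CPM in the non-responder ones.

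The other members of the class II list pointed the same way without passing the test. All 7 tested members had a positive difference, with a median of 0.39 against -0.005 over all genes tested, and H2-Eb1 was the 1 of 7 that passed. H2-Ab1 was 0.70 ± 0.26 (edgeR, adjusted p = 0.300) and H2-Aa 0.62 ± 0.26 (edgeR, adjusted p = 0.387). The hosts did not order by class for H2-Aa, since CC080, a non-responder, had a mean of 1828 CPM, next to CC001 at 2012.5 CPM.

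Spon1, the matrix protein spondin 1 (chr7:113765998-114043370, plus strand), was low in all tumors. Its lowest, median and highest levels were 11.1, 26.9 and 54.2 CPM in responder isotype tumors, 19.8, 49.4 and 138 CPM in responder aPD1 tumors, 0, 12.4 and 27.3 CPM in non-responder isotype tumors and 0, 7.68 and 46.1 CPM in non-responder aPD1 tumors. It was higher in responder hosts by 1.76 ± 0.29 (SE; edgeR, adjusted p = 0.000238), and was 1.83 with an adjusted p of 0.0227 when summed per host (edgeR). Foxn3, a forkhead transcription factor, ranged from 157 to 371 CPM in responder tumors and from 98.6 to 236 CPM in non-responder tumors, a difference of 0.70 ± 0.10 (edgeR, adjusted p = 3.48e-05). B6, which is in neither class, had the highest host mean of Foxn3, 348 CPM. Trim30d, a member of the tripartite motif family, was 1.26 ± 0.21 higher (edgeR, adjusted p = 0.000304). Its host means of 170 CPM in CC075 and 144 CPM in CC001 stood above the 78.2 CPM of CC002, and CC080, a non-responder, lay between at 86.9 CPM. Without CC075 the difference of Trim30d was 0.92 with an adjusted p of 0.122 (edgeR).

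Prcp, a lysosomal carboxypeptidase, was higher in responder hosts by 0.62 ± 0.11, at 126 against 82.4 CPM (edgeR, adjusted p = 0.000538). Other genes higher in responder hosts were Dusp16, a phosphatase of the JNK pathway (0.96 ± 0.21, edgeR, adjusted p = 0.0165), and Acp5, tartrate-resistant acid phosphatase (1.28 ± 0.30, edgeR, adjusted p = 0.0232). They were chosen after their values were seen. Of the 5 genes lower in responder hosts, App, the amyloid precursor protein, was at 390 against 540 CPM, a difference of -0.45 ± 0.10 (edgeR, adjusted p = 0.0130). Lrrc58 was at 37.4 against 57.6 CPM (edgeR, adjusted p = 0.0134), and lost its call in 4 of 18 cases with 1 pool or host left out, namely pool 9, pool 11, CC075 and CC079 (edgeR, adjusted p = 0.0963, 0.0993, 0.124 and 0.0766). Pools 6 and 7 held no classed tumor, so that the cases without them repeat the main fit. App lost its call without pool 9, without CC001 or without CC036 (edgeR, adjusted p = 0.0937, 0.0948 and 0.0652).

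Taken arm by arm, 6 genes differed between the classes among isotype tumors, or 0.135%, and 9 among aPD1 tumors, or 0.203%. With the pool as a block the counts were 10 and 80. Genes past the threshold among aPD1 tumors and not among isotype tumors were Prcp, H2-Eb1, Spon1, Tbc1d8 and Ly6c1, and the interaction passed for none of them. The call of Ly6c1 was lost in 11 of 18 analyses without 1 pool or 1 host (edgeR, adjusted p up to 0.302), and those of the other 4 genes in 0. Here too the analyses without pool 6 or pool 7 repeat the main fit. Tbc1d8, a member of a family of Rab GTPase-activating proteins, separated the classes fully in aPD1 tumors, from 37.91 to 91.9 CPM in responders and from 7.69 to 37.86 CPM in non-responders, a difference of 1.49 ± 0.26 (edgeR, adjusted p = 0.000920). In isotype tumors it ranged from 8.17 to 44.7 CPM and from 5.19 to 70.9 CPM. Itgb1, integrin beta 1, showed the opposite arrangement, with 97.5 to 178 CPM in responder and 187 to 244 CPM in non-responder isotype tumors, a difference of -0.61 ± 0.14 (edgeR, adjusted p = 0.0391). In aPD1 tumors its ranges were 170 to 273 CPM and 154 to 315 CPM, and the Itgb1 call was lost in most analyses that left out 1 pool or 1 host.

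**Figure D4:**
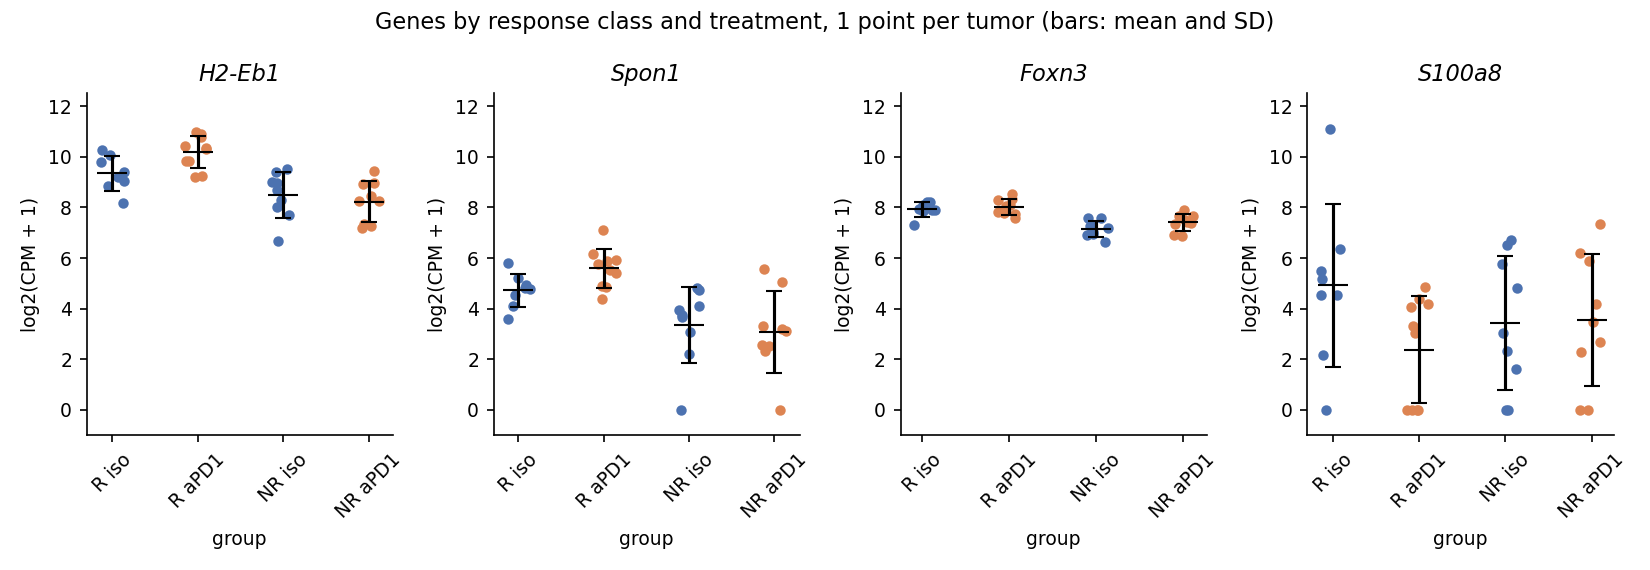
Levels of H2-Eb1, Spon1, Foxn3 and S100a8 in cluster 4 as log2(CPM + 1), 1 point per tumor, for responder (R) and non-responder (NR) hosts with isotype or aPD1, with means and SD. H2-Eb1, Spon1 and Foxn3 lie higher in responder tumors with overlap, and 1 responder isotype tumor stands alone for S100a8 at 2184 CPM.

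None of the 39 monocyte markers tested (40 over all hosts) passed in any of the class or treatment comparisons. The share of all genes called was at most 0.473% in these comparisons, so that no call in a list of this size says nothing about the markers. In the class comparison over both treatments their differences ran from -0.61 to 0.63 on the log2 scale and the smallest adjusted p was 0.178 (edgeR). Among aPD1 tumors they ran from -0.89 to 0.98, and Adgre4 was nearest to the threshold. Adgre4 had 63.0, 184 and 267 CPM as lowest, median and highest level in responder aPD1 tumors and 69.1, 88.4 and 146 CPM in non-responder aPD1 tumors, a difference of 0.98 ± 0.24 (edgeR, adjusted p = 0.0857). Among isotype tumors the difference of Adgre4 was 0.09 ± 0.27. All 13 tested genes of the non-classical list had a positive difference among aPD1 tumors, with a median of 0.50 and 8 at an unadjusted p under 0.05, where all 4439 genes gave 418. Among isotype tumors 8 of the 13 had a positive one and 5 a negative one, with a median of 0.09 and 0 at an unadjusted p under 0.05. Of the 14 classical genes 13 had a negative one, with a median of -0.35 and Fn1 at -0.86 ± 0.21 (edgeR, adjusted p = 0.0857), against 7 of 14 and a median of -0.04 among isotype tumors. The median over all genes was -0.0075 among aPD1 tumors, and no member of either list was called in either arm. Ace was at 129 CPM (median, 26.98 to 291) in responder and at 99.95 CPM (38.2 to 139) in non-responder aPD1 tumors, and the groups overlapped.

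In the other lists, as in all genes (0.473%), calls were too rare for a list's count of calls to be read. Of the 20 tested genes of the interferon gamma response 19 had a positive class difference, with a median of 0.39, and none was called. In the MHC class I list 9 of 11 were positive, with a median of 0.44 and none called, H2-T22 being nearest at 0.72 ± 0.20 (edgeR, adjusted p = 0.120). Of 11 chemokines and receptors 10 were negative, with a median of -0.29 and none called. Genes of a list move together in a tumor and are not independent of each other.

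In responder hosts 1 gene of 4439 (0.0225%) differed between aPD1 and isotype tumors, and that was S100a8, at 9.68 against 299 CPM. Its lowest, median and highest levels were 0, 28.9 and 2184 CPM with isotype and 0, 8.09 and 28.1 CPM with aPD1. The high value came from 1 tumor, the CC001 isotype tumor of pool 12, which held 979 of the 1356 S100a8 UMIs of cluster 4, 436 of them in 1 cell, and 443 of the 502 UMIs of S100a9, its partner. Outside the monocyte and macrophage clusters the cells of this tumor held 6529 S100a8 UMIs, against at most 756 in any other tumor, and the part of granulocytes or free RNA in the value was not tested. The same tumor had the highest Chil3 (3043 CPM) and the highest Hp (495 CPM) of all tumors. The difference was -4.94 ± 0.98 (edgeR, adjusted p = 0.0457), and without this tumor, an analysis added after the data were seen, it was -1.44 with an adjusted p of 0.99964 and no gene was called. DESeq2 called none in all tumors.

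In non-responder hosts no gene differed between aPD1 and isotype tumors by edgeR (0%), with 70 at an unadjusted p under 0.05, and DESeq2 also called 0. For the interaction of treatment and class edgeR called 0 genes (0%), with 167 at an unadjusted p under 0.05 and 0 called by DESeq2. With the pair of tumors of 1 pool and host as a block 2 were called. The counts of 70 and 167 are below a share of 0.05 of the 4439 genes tested. Their fit, which also gave the class comparisons, held the groups of class and treatment with no term for host or pool. Differences between hosts thus add to its spread. Over all 8 hosts 0 of 5272 genes were called by edgeR (0%), with 246 at an unadjusted p under 0.05 and 0 called by DESeq2. The interferon gamma list had 20 of 21 tested genes at positive values there, with a median of 0.33 and 7 at an unadjusted p under 0.05. Socs1, an inhibitor of cytokine signalling, was at 0.56 ± 0.19 and Psmb9, a subunit of the immunoproteasome, at 0.32 ± 0.11 (edgeR, adjusted p = 0.999 for each). All 12 genes of the MHC class I list were positive, with a median of 0.19. No call follows from these values, and the treatment and the hashtag cannot be told apart.

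Differences between hosts were the most numerous. Across the 8 hosts 918 of 5272 genes differed (edgeR quasi-likelihood F test, adjusted p under 0.05), or 17.4%. With a term for pools 1 to 6 against pools 7 to 12 479 genes differed. That split was set here by pool number, as the sample labels give no processing batch. With the pool as a block 178 differed, of which 161 were among the 918. Several of the leading genes were present in some hosts and nearly absent from others, and some of these have close copies in the genome. Reads of near-identical copies can be assigned to either, and most hosts carry alleles that differ from the reference, so that the split between copies is uncertain.

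Ly6c1 and Ly6c2 encode the 2 Ly6C proteins and lie close to each other on chromosome 15. Their transcripts were 97.6% identical over 822 bases. Ly6c2 was found in all hosts, from a mean of 842 ± 185 CPM (SD, n = 7) in CC001 to 1789 ± 714 CPM (SD, n = 5) in B6. Ly6c1 was at 426 ± 90.7 CPM (SD, n = 3) in CC007, 360 ± 56.6 CPM (n = 6) in CC079 and 259 ± 81.4 CPM (n = 6) in CC080, but at 34.8 ± 23.9 CPM (n = 7) in CC001 and at most 8.15 CPM on average in CC002, CC075, B6 and CC036. The ranges of these 3 high hosts, 133 to 501 CPM, did not overlap those of the others, 0 to 79.3 CPM (edgeR F test, adjusted p = 1.07e-23). As 2 of the 3 high hosts are non-responders, Ly6c1 also differed between the classes, by -3.62 ± 0.63 (edgeR, adjusted p = 0.000538), although CC036, a non-responder, was lowest. Without CC075 that adjusted p was 0.0504.

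Lyz1 and Lyz2 encode lysozymes and lie close to each other on chromosome 10, with transcripts 95.8% identical over 1264 bases. Lyz1 was at 507 ± 111 CPM (SD, n = 3) in CC007 and 417 ± 118 CPM (n = 5) in CC002, and the other hosts had means of 1.99 to 15.3 CPM (edgeR F test, adjusted p = 2.8e-23). The lowest tumor of these 2 hosts, at 259 CPM, stood above the highest of the other hosts, at 46.7 CPM. One of them is a responder and the other has no class.

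The 250 bases before the start of each of these 4 genes are shown because the transcripts of a pair are nearly alike, so that a reader can see how far the sequence outside them differs. They are the reference sequence of RefSeq (GRCm38.p6, which is B6), all on the minus strand, and say nothing of the CC alleles. Capitals mark the bases that differ between the 2 genes of a pair in their alignment, 51 of 251 aligned positions for the lysozyme pair and 64 of 228 for the Ly6C pair. Bases at the ends that lay outside the alignment are in small letters and were not compared. These are most at the start of Ly6c1 and the end of Ly6c2. They span chr10:117292869-117293118 for Lyz1, chr10:117282273-117282522 for Lyz2, chr15:75048838-75049087 for Ly6c1 and chr15:75111972-75112221 for Ly6c2.
Lyz1: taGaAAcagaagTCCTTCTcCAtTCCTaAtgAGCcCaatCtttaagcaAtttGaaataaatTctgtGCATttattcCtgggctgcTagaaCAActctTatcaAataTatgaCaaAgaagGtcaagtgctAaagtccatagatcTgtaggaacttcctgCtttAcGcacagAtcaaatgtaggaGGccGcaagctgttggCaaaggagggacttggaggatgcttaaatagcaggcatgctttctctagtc
Lyz2: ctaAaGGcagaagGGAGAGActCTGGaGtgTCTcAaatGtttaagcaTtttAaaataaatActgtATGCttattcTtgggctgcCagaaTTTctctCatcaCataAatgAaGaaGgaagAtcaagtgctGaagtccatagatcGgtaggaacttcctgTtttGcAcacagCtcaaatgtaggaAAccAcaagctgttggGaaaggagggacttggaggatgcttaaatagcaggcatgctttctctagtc
Ly6c1: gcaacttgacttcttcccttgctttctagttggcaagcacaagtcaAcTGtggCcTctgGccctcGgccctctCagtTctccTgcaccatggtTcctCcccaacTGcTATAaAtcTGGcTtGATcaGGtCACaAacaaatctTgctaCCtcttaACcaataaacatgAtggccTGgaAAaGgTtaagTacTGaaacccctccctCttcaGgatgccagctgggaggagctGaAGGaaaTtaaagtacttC
Ly6c2: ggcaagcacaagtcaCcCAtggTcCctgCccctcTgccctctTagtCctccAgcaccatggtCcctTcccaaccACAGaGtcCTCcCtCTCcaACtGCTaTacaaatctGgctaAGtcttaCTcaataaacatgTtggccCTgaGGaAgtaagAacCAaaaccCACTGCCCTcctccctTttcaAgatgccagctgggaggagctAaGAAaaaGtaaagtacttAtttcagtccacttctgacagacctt

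Ly6i, another Ly6 gene of the same region (chr15:74979534-74983430, minus strand), had the largest positive class difference of the genes called. Its lowest, median and highest levels were 53.2, 340 and 1152 CPM in responder isotype tumors, 128, 457 and 1654 CPM in responder aPD1 tumors, 24.7, 81.1 and 165 CPM in non-responder isotype tumors and 33.0, 83.8 and 167 CPM in non-responder aPD1 tumors. The class difference was 2.89 ± 0.37 (edgeR, adjusted p = 1.97e-06). It followed 2 hosts, CC001 at 1076.5 ± 415 CPM (SD, n = 7) and CC075 at 458 ± 309 CPM (n = 6), whereas CC002, the other responder, was at 114 ± 59.4 CPM (n = 5), within the range of B6 and of the non-responder CC080. Among aPD1 tumors the adjusted p of Ly6i was 0.105 without CC001 (edgeR).

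Gm10260 and Rps18 marked the classes in opposite directions and are 99.1% identical over 545 bases. Rps18 encodes a ribosomal protein, and Gm10260 is annotated as a gene on chromosome 13. Gm10260 was at 0 to 134 CPM in responder and 356 to 725 CPM in non-responder tumors, with no overlap (-4.95 ± 0.34, edgeR, adjusted p = 3.10e-14). Rps18 was at 1346 against 826 CPM (0.72 ± 0.10, edgeR, adjusted p = 3.99e-06). Ftl1-ps1 is likewise 99.6% identical to the ferritin gene Ftl1 over 910 bases and was at 1456 ± 249 CPM in CC001 and 1205 ± 822 CPM in CC080, against at most 51.4 CPM on average in the other hosts (edgeR F test, adjusted p = 3.09e-21).

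Other genes that differed strongly between hosts were of varied kinds. Ifi44, an interferon-induced protein, was at 142 ± 48.5 CPM (SD, n = 5) in CC002, from 71.7 to 203 CPM, and the means of the other hosts were 0.346 to 7.83 CPM (edgeR F test, adjusted p = 1.45e-14). Chil1, a chitinase-like protein related to Chil3, was at 75.3 CPM in CC007, 57.6 CPM in CC001 and 55.3 CPM in CC036, and listed at 0 in CC002 (edgeR F test, adjusted p = 1.50e-12). Ank2, an ankyrin, was at 130 CPM in CC075 and 120 CPM in CC036 and at most 10.3 CPM on average in hosts other than these and CC002 (edgeR F test, adjusted p = 7.30e-17). Gm50022, one of the 20 genes of largest ratio in cluster 4, was at 118 to 169 CPM on average in 6 hosts, at 11.5 CPM in CC001 and at 1.21 CPM in B6 (edgeR F test, adjusted p = 4.27e-16).

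**Figure D5:**
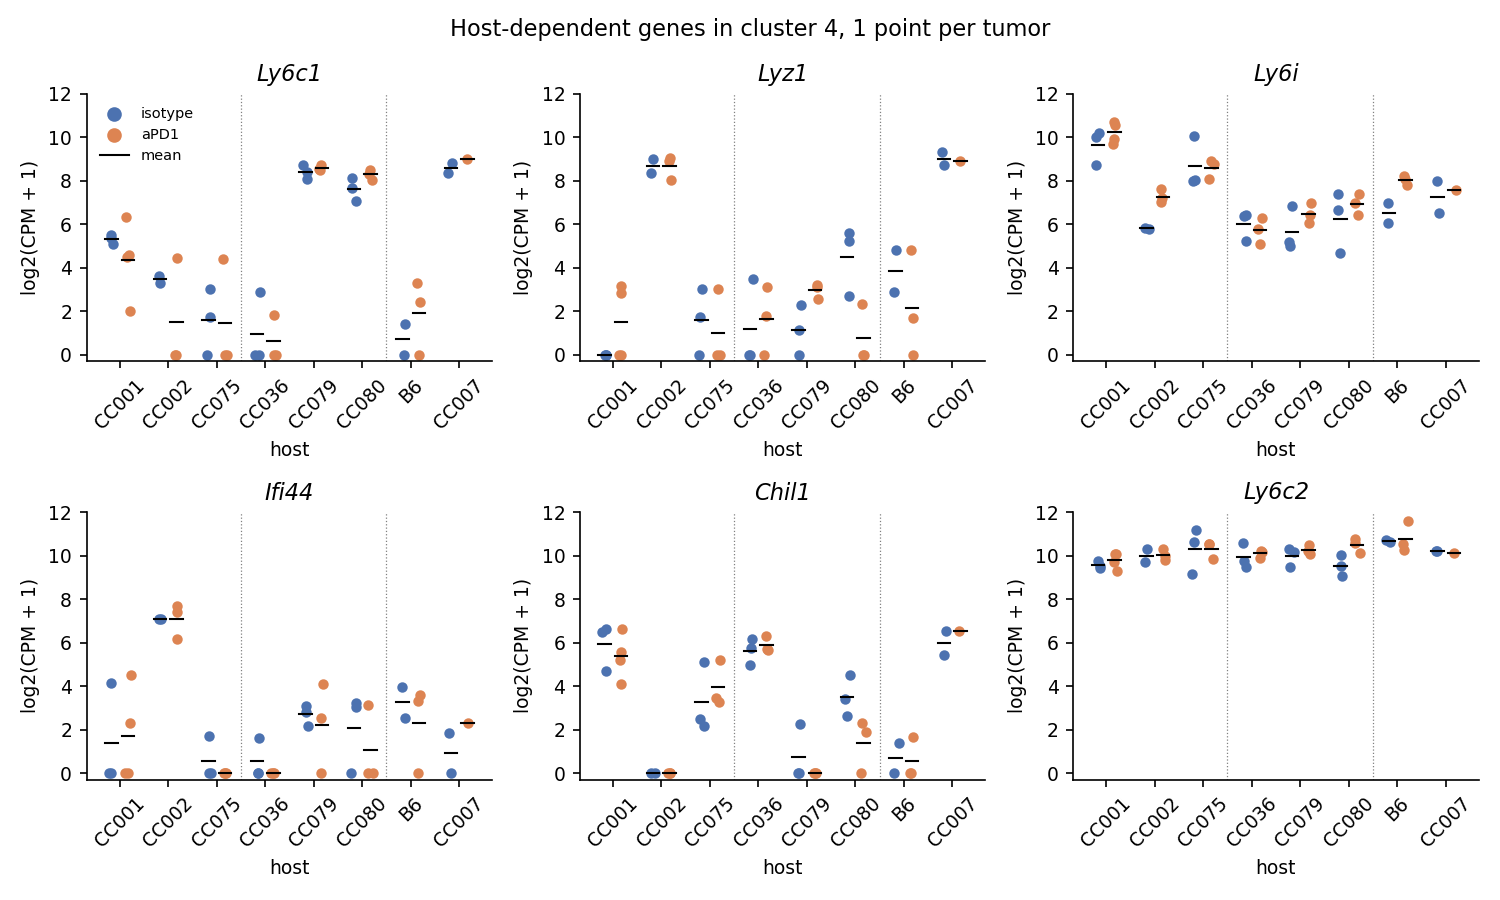
Levels of Ly6c1, Lyz1, Ly6i, Ifi44, Chil1 and Ly6c2 in cluster 4 as log2(CPM + 1) by host, 1 point per tumor and a line at each mean. Ly6c1, Lyz1 and Ifi44 are far higher in some hosts than in the rest, whereas Ly6c2 is found in all 8 hosts.

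Of the 40 monocyte markers 13 differed between hosts, or 6 of 14 classical, 5 of 14 non-classical and 2 of 12 shared genes, beside the 17.4% of all genes. With the pool as a block these were 1 classical, 4 non-classical and 2 shared genes, beside 3.38% of all genes, and Ear2 and Treml4 kept their calls (edgeR F test, adjusted p = 7.10e-06 and 0.0144) while Ace and Hp lost theirs (0.202 and 0.0645). Ear2, a ribonuclease of monocytes and eosinophils, was highest in CC001 at 381 ± 73.0 CPM (SD, n = 7) and lowest in B6 at 78.7 ± 59.0 CPM (n = 5), with ranges apart (edgeR F test, adjusted p = 1.66e-08). Ace was highest in B6 at 166 ± 68.3 CPM (n = 5) and lowest in CC079 at 45.4 ± 19.9 CPM (n = 6), and the hosts between overlapped (edgeR F test, adjusted p = 0.0296). Hp was highest in CC079 at 277 ± 46.5 CPM and lowest in CC002 at 133 ± 34.3 CPM (edgeR F test, adjusted p = 0.0344). CC079 also had the lowest mean of Adgre4 (85.0 CPM) and the highest of Vcan (321 CPM), but neither gene passed the test between hosts (edgeR F test, adjusted p = 0.239 and 0.222). Treml4 ran from 27.9 CPM in CC001 to 100.4 CPM in CC075, and Samhd1, a nuclease that limits viral DNA synthesis, from 726 CPM in CC079 to 2317 CPM in CC075.

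Of 12 MHC class I genes, which present peptides on the cell surface, 9 differed between hosts and of 8 class II genes 7, where all genes gave 17.4%. With the pool as a block these were 6 and 5, where all genes gave 3.38%. H2-K1, a classical class I gene, was highest in CC080 at 1601 ± 436 CPM and lowest in CC036 at 674 ± 178 CPM (edgeR F test, adjusted p = 2.52e-06), and H2-T23, a non-classical one, ran from 231 CPM in CC036 to 566 CPM in B6. Cd74 was at 1768 ± 569 CPM in CC036 and 5610 ± 2066 CPM in CC080. CC036 was lowest of the 8 hosts for H2-Eb1, H2-Aa, H2-Ab1, Cd74, H2-K1 and H2-T23. H2-Q2, a further class I gene, was at 141 CPM in CC007 and listed at 0 in CC002 and CC075, and was 85.5% identical to H2-D1. Reads that differ from the reference at these variable genes may be counted less fully, which was not tested. Of 17 genes of the type I interferon response 8 differed between hosts and of 21 of the interferon gamma response 10, and with the pool as a block 2 and 3.

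Finally, the class difference in cluster 4 was set against that in the other macrophage clusters of the same tumors. These 9 clusters were pooled. Cluster 26 made up 29.5% ± 10.5 (SD, n = 18) of the pooled cells in responder and 23.8% ± 9.76 (SD, n = 18) in non-responder tumors, and the other 8 differed by -1.27 to 0.268 points. Neither these differences in mix nor their part in the results was tested. For 11 of 8146 genes (0.135%) the 2 differences were unequal (edgeR with 1 term per tumor, adjusted p under 0.05), 5 more positive in cluster 4 and 6 more negative. This split was 6 and 3 with other scalings, which move the median of all genes from -0.0459 to 0.0029 or 0.0267. Rnase2a, a ribonuclease of the Ear family, was at 22.9 against 2.38 CPM in cluster 4 of responder and non-responder tumors and at 10.3 against 9.16 CPM in the other clusters, a difference of differences of 3.26 ± 0.50 (edgeR, adjusted p = 0.000210). It was found in CC002 at 44.96 CPM and in CC001 at 26.6 CPM and hardly in CC075, at 0.292 CPM. Sulf2, an extracellular sulfatase, was at 77.3 and 81.2 CPM in cluster 4 but at 41.4 against 74.3 CPM in the other clusters (0.72 ± 0.15, edgeR, adjusted p = 0.0193). Nos2, inducible nitric oxide synthase, was at 4.76 against 9.17 CPM in cluster 4 and at 40.0 against 18.8 CPM in the others (-3.01 ± 0.64, edgeR, adjusted p = 0.0199). Leaving out 1 pool at a time ended the call of Nos2 in 5 of 10 cases (edgeR, adjusted p up to 0.185), that of Sulf2 in 4 (up to 0.0882) and that of Rnase2a in 0. Nos2 was counted at 89 UMIs in all of cluster 4. Fgl2, a secreted fibrinogen-like protein, was at 165 CPM in cluster 4 of both classes and at 170 against 106 CPM in the others (-0.79 ± 0.15, edgeR, adjusted p = 0.00828). Leaving out pool 5 ended the call of Fgl2 (edgeR, adjusted p = 0.0592). Of the 40 monocyte markers 1 was among the 11, Ifitm2, at 1530 against 1574 CPM in cluster 4 and 1027 against 845 CPM in the others (-0.41 ± 0.09, edgeR, adjusted p = 0.0287), a call that was lost with the other scalings and in 5 of 10 cases without 1 pool. For the effect of aPD1 over all hosts edgeR called 0 of 8188 genes (0%) as unequal between cluster 4 and the other clusters, with 372 at an unadjusted p under 0.05 and 0 called by DESeq2.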

How the data were processed

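Single cells of 48 hashtagged tumor specimens in 12 pools were measured with 10x 5′ chemistry. UMI counts per gene and cell, 27457 genes and 93126 cells, were deposited by the authors with a table of cluster, strain and treatment for each cell. Per the study's methods the reads were aligned with Cell Ranger to GRCm38 with GENCODE annotation, cells were filtered on mitochondrial and ribosomal shares, and clusters were made after correction for the processing date of the libraries. The submitters' processing notes name Cell Ranger and Seurat 5.0.1. All 150064855 stored counts were whole numbers. How the authors treated doublets is not given in the sources used here. A doublet caller was not run, and 1 alternative left out 111 cells with T cell UMIs or more than 3 times the median UMIs.

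Here the counts of the cluster 4 cells were summed per tumor, a tumor being 1 strain and treatment within 1 pool, and tumors with at least 20 such cells were compared with edgeR 4.0.16 (quasi-likelihood test, TMM scaling, Benjamini-Hochberg adjustment over all genes kept by filterByExpr) in R 4.3.3. DESeq2 1.42.0, other scalings, no filter, at least 50 cells and sums per host were alternatives. So were a term for pools 1 to 6 against pools 7 to 12, pools as a block, and leaving out each pool or host. Shares were compared with permutation tests written with numpy 2.4.6, with ranks taken from scipy 1.17.1. The response class is the study's own, since the labels give the strain only. Pool numbers pair tumors because 1 library held 4 specimens, and over 19 pairs of tumors of 1 pool the correlation of deviations from group means was -0.0222 to 0.335 (median 0.094, 9 over 0.1). Separate specimens are separate tumors, except that 2 CC080 tumors share an animal identifier, the isotype tumor of pool 3 and the aPD1 tumor of pool 4. As each mouse received only 1 of the antibodies, whether these came from 1 animal is not known. The depth per tumor, 21304 to 861936 UMIs in cluster 4, limits low genes most.

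The members and the gene lists were chosen with earlier results of these data known. Genes named were all monocyte markers, the 20 genes of largest ratio of cluster 4 to all other cells at 50 CPM or more, the 6 of smallest adjusted p per direction and comparison (12 between hosts), up to 4 members of smallest p per list, and the 5 most like Ace and Chil3 across clusters. The genes most like Ace and Chil3 were also taken from those at 50 CPM or more in cluster 4. Other genes named were chosen after their values were seen. Coordinates are those of GENCODE vM21 (GRCm38), promoter sequences those of RefSeq (GRCm38.p6), and transcripts were compared with BLASTN 2.17.0+. Values of some single genes are not reported here.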

Additional observations from a re-analysis of the deposited data

Results flagged for a closer look

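Of 104 groups of tumors examined, over the share and 25 genes, 8 held a tumor apart from the rest of its group by Dixon's criterion, which chance gives in about 1 in 20 groups. The 8 values came from 7 tumors, and 7 of them are given here. The share of cluster 4 was 12.2% in the CC036 aPD1 tumor of pool 9, against 2.97% to 7.19% in the other non-responder aPD1 tumors. Foxn3 was at 157 CPM in the CC002 isotype tumor of pool 3, against 231 to 300 CPM in the other responder isotype tumors (299.9 at most). Lrrc58 was at 16.1 CPM in the CC001 aPD1 tumor of pool 4 (others 34.5 to 59.4 CPM) and at 11.1 CPM in the CC075 isotype tumor of pool 9 (others 24.5 to 44.3 CPM). Prcp was at 68.9 CPM in the CC001 aPD1 tumor of pool 2 (others 117 to 191 CPM). Itm2b was at 355 CPM in the CC075 isotype tumor of pool 9 (others 674 to 1184.5 CPM), and Nos2 at 28.7 CPM in the CC075 aPD1 tumor of pool 10 (others 0 to 4.31 CPM).

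The class difference in cluster 4 was unequal to that in the other macrophage clusters for 11 genes, tested as an interaction (edgeR quasi-likelihood test, adjusted p under 0.05). On the log2 scale cluster 4 had the more positive difference for Rnase2a (3.26), Gm10260 (2.56), Lyz1 (2.55), Plcl1 (0.77) and Sulf2 (0.72). It had the more negative one for Nos2 (-3.01), Fgl2 (-0.79), Blvrb (-0.69), Itm2b (-0.53), Ifitm2 (-0.41) and Fcer1g (-0.28). Fcer1g, Blvrb and Ifitm2 were not past the threshold under the other scalings. Leaving out 1 pool at a time ended the call of Plcl1 and Fcer1g in 6 of 10 cases each (edgeR, adjusted p up to 0.236 and 0.197), of Nos2, Blvrb and Ifitm2 in 5, of Sulf2 in 4, of Lyz1 and Itm2b in 2, of Fgl2 in 1 and of Rnase2a and Gm10260 in 0. Gm10260 and Lyz1 have close copies, so that the split of their reads is uncertain. The nearest other transcript to that of Rnase2a, of Ear2, was 81.4% identical.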

How the results depend on the processing

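The share of cluster 4 kept the direction of both class differences in all alternatives run. Among aPD1 tumors that difference was past p = 0.05, unadjusted, with exact permutation tests without the 2 tumors that share an animal identifier (-2.33 points), as a difference of means (-1.99 points) and within pools 7 to 12 (-3.72 points). With pools as a replicate block, which pairs the tumors of 1 pool, the isotype difference was past it too (-2.13 points), and leaving out 1 pool or host gave -2.67 (without CC075) to -0.825 (without CC001) points with isotype and -2.59 (without CC080) to -0.840 (without CC036) points with aPD1. Of these leave-one-out settings 7 of 20 were past the threshold with aPD1 (p down to 0.0207, exact permutation tests) and 1 with isotype (without CC075, p = 0.0311). Leaving out pool 6, pool 7, B6 or CC007 removes no classed tumor and repeats the main result. Treatment differences, none past the threshold, changed sign: as shares of the macrophage clusters the interaction was 1.13 and all hosts -0.362 points, without tumors under 500 cells all hosts -0.604, in pools 1 to 6 responders 1.43 and the interaction 2.19, and in pools 7 to 12 non-responders 0.626 and all hosts -0.578. Leaving out 1 pool or host gave -1.36 to 0.887 for responders, -1.46 to 0.715 for non-responders, -1.21 to 1.05 for the interaction and -0.590 to 0.584 for all hosts. Host means spanned 12.3 points as a share of the macrophage clusters (permutation test of the Kruskal-Wallis statistic, p = 0.0761). The span was 3.47 (without pool 6 or CC007) to 11.1 points (without pool 7) when 1 pool or host was left out. The cause of these changes was not tested.

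Counts of genes called depended on the setting. With no filter they were 91 for the classes, 31 with isotype, 53 with aPD1, 5 for treatment in responders, 1 for the interaction and 29 for treatment in all hosts. At 50 cells or more they were 13 for the classes, 3 with isotype and 0 for treatment in responders, with fewer tumors. With the pool as a block they were 77, 10 and 80 for the classes, isotype and aPD1 and 178 between hosts. With the pair of tumors of 1 pool and host as a block the interaction gave 2. Neither block moved another count by over 1.5 times. Summed per host 2 genes remained for the classes, Gm10260 and Spon1. With the term for pools 1 to 6 against pools 7 to 12 treatment in responders gave 2 and hosts gave 479. DESeq2 gave 14 for aPD1 and 0 for treatment in responders, which was also 0 with library size alone and without the tumors that share an animal identifier. Without the CC001 isotype tumor of pool 12, chosen after seeing the data, aPD1 gave 14, treatment in responders 0 and the comparison with other macrophage clusters 18. Leaving out 1 pool or host gave 9 (without pool 9) to 56 (without CC001) for the classes, 2 (pool 9) to 9 (pool 12) with isotype, 7 (pool 3 or 11) to 21 (CC036) with aPD1, 0 to 1 for treatment in responders, 298 (CC079) to 1040 (pool 6) between hosts and 2 (pool 5) to 21 (pool 12) for the comparison with other macrophage clusters. It gave 0 for treatment in non-responders, in all hosts, for the interaction and for the treatment effect against other macrophage clusters. Of the values for single named genes, 756 kept their side of the threshold, 159 did not and 0 changed sign. The 756 include class fits without pool 6 or pool 7, which repeat the main fit. Low UMI totals in some tumors limit genes of low level, and 3 hosts a class limit what the class comparisons can show.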

Other observations

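Further genes went with the split of cluster 4 into cells with and without a UMI of Ace or Adgre4, over the same 32 tumors and thinned cells, again as a description without a test. Among the receptors for IgG, Fcgr4, the receptor usual on non-classical monocytes, was at 182 against 109.7 CPM and higher in 22 tumors. Fcgr1, the high-affinity receptor, was at 106 against 227 CPM and lower in 28, and Fcgr2b, the inhibitory receptor, at 257 against 408 CPM and lower in 29. Klf2, a transcription factor of quiescent and circulating leukocytes, was at 1015 against 619.96 CPM and higher in 27 tumors, and Csf1r, the receptor for the growth factor CSF1, at 509 against 321 CPM and higher in 28. The interferon-induced chemokines Cxcl9 and Cxcl10 were at 331 against 612 CPM and 436 against 855 CPM, lower in 25 and 26 tumors.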
